A study of Mus musculus with 13 samples.

Results

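Microglia are the resident macrophages of the brain, and those described here came from the medial amygdala, a part of the forebrain that processes social and chemosensory signals. The members were cells that the study's authors had placed in their class MG, that had at least 500 detected genes, and that had a unique molecular identifier (UMI, one counted RNA molecule) for at most 1 of the 7 genes Mrc1, Pf4, Cd163, Ms4a7, F13a1, Cbr2 and Lyve1, which mark perivascular and border macrophages. The rule took 3679 of the 43388 deposited cells and of the 24808 cells with at least 500 detected genes. Class MG held 6366 cells, of which 3788 had at least 500 detected genes, and the other 109 of these are called macrophage-like cells below.

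The libraries came from naive C57BL/6J mice, 6 from males and 7 from females. Male replicates 3 and 5 and female replicate 3 were labelled 8 weeks old and the other 10 libraries 9 weeks old. The light cycle of all mice was reversed and each was housed singly for a day or more, and cells were dissociated by Act-seq, a protocol made to limit transcription during dissociation, before Drop-seq, which tags the 3′ end of each RNA with a cell barcode and a UMI. No genetic change, drug or behavioural test is labelled. The labels say neither whether libraries came from separate animals nor at what hour cells were taken, so p-values between sexes measure the spread between these libraries. Microglia numbered 166 to 422 per library, with 324756 to 800300 UMIs in all and medians of 1403.5 to 2229 UMIs per cell. Among kept cells 20 barcodes occurred in more than 1 library, and 8 of them involved a cell of class MG. Random draws of barcodes of 12 bases would give 18.3 pairs of equal barcodes among all kept cells.

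Microglia enter the brain from the yolk sac early in development and renew themselves there, kept alive by signalling through the receptor Csf1r and held in their resting programme by TGF-beta. At rest they move their processes over synapses and blood vessels, sense purines through P2ry12 and the neuronal chemokine fractalkine through Cx3cr1, and clear debris through complement, Trem2 with its adaptor Tyrobp, and lysosomal proteases. The transcription factor PU.1, product of Spi1, is needed for the lineage.

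The label was first set against 5 markers. A UMI of Ctss, the lysosomal cysteine protease cathepsin S, was present in 98.9% of members, of C1qa in 97.9%, of Cx3cr1 in 98.0%, of P2ry12 in 96.3% and of Tmem119 in 86.5%. In oligodendrocytes, which had a deeper median of 3188.5 UMIs per cell against 1786.5, the same shares were 3.98%, 2.04%, 2.72%, 1.51% and 0.781%. All 5 markers were present in 3114 members (84.6%). However, 59 members, 23 from males and 36 from females, had 2 or fewer, and 32 of them had none. The genes that led those 59 cells were Ccl5, Ms4a4b, Ly6c2, Ly6a, Gimap4, Nkg7, Trbc2, H2-Q7, Ptprcap and Cd3g, of which Nkg7, Trbc2 and Cd3g are known from T or natural killer lymphocytes and Ly6a also from endothelial cells. Ms4a4b had 195 UMIs there and 0 in the other 3620 members, and the summed level of 12 endothelial markers was 11291 CPM (a gene's UMIs scaled to a common library total) against 90.4 CPM. These cells stayed members under the rule. The counts of called genes, the share of microglia and the sex differences of the states below were repeated without them. This alternative was chosen after the data were seen. The shares of members in each state, the variance ratios and the class-by-sex term were not repeated.

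At the macrophage threshold, 3644 members had none of the 7 genes and 35 had 1, which was Mrc1 in 22. The summed level of 20 homeostatic microglia genes was 50917 CPM in cells with 0 of the 7 genes and 43719 CPM in cells with 1. The single cell with 2 stood at 12365 CPM. At the gene threshold, the 236 cells of class MG with 450 to 499 genes had 50527 CPM of that list and the 180 with 500 to 549 genes had 51323 CPM.

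Promoter letters are shown for genes that carried the 2 main patterns below, expression far above the other classes and the sex difference in clock genes. They come from RefSeq windows on GRCm38.p6 that run from 250 bases before to 50 after each annotated start, and each is written 5′ to 3′ on the gene's strand with the motif in capitals. Motifs were searched on both strands: GAGGAAGT, the core bound by PU.1, the E-box CACGTG bound by the clock factors Clock and Arntl, and the D-box TTATGNAA bound by Dbp, Tef and Hlf. The first 3 windows hold the PU.1 letters, which read ACTTCCTC where the motif lies on the opposite strand, and the last 3 hold E-boxes or D-boxes.
C1qc, chr4:136893072-136893139, minus strand, outside annotated transcripts: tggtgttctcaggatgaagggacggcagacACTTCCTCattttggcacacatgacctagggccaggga
Hpgds, chr6:65144761-65144790, minus strand, in an annotated exon: gcttttaggtgGAGGAAGTggcctctggct
Cd37, chr7:45238846-45238875, minus strand, at an annotated first exon: acccccccggaACTTCCTCtttctctgccg
Tef, first start, chr15:81802535-81802562, plus strand, in an annotated exon: tgctgtggctcCACGTGctgcagctggc
Tef, second start, chr15:81811246-81811311, plus strand, within the gene: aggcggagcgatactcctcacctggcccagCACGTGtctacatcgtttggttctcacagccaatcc
Per3, chr4:151044786-151044900, minus strand, upstream of Per3 and within Camta1: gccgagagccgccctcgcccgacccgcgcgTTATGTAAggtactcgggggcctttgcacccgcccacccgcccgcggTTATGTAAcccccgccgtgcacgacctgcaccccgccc
Among all 32851 windows, 3.20% held GAGGAAGT, 7.15% CACGTG and 3.38% TTATGNAA. Counted by gene over the 10619 genes of the class comparison with a window, the shares were 3.45%, 11.6% and 2.53%. Of the 30 most enriched genes named by the rule below, 21 had a window and 6 of these held GAGGAAGT. No comparison of shares is drawn, because under 80% of the genes had a window (70% of those 30, 76.6% of all enriched genes and 78.3% of all counted genes). All 4 clock genes that passed the sex test had one, of which 1, Tef, held an E-box and 1, Per3, held D-boxes. A match describes letters in a window and is not evidence that a factor binds there.

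Microglia were then set against the authors' other 7 classes, with UMIs summed per library and class and given as CPM. The authors named the classes from these genes, so the values are a description without a test. Folds were taken over the highest other class with 5 CPM added to both means. A gene was called enriched where this fold was at least 4 and every microglia library lay above every library of every other class. Of 13564 genes that reached 10 CPM in some class, 376 (2.77%) were enriched and 16 (0.118%) were depleted by the mirrored rule. Microglia had the highest mean of all classes for 1964 genes (14.5%), and the median fold over all genes was 0.431. Counts for the lists below stand against these shares, and the lists were chosen with earlier results of these data known. Without the 59 members with few markers 376 were enriched and 21 depleted. The next highest class was endothelial cells for 136 enriched genes, oligodendrocyte precursors for 89 and mural cells for 55.

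Ctss stood furthest apart. Its lowest, median and highest microglia libraries had 8333, 9560 and 10368 CPM, while no library of another class passed 251 CPM, a 152-fold difference in means. Csf1r, the receptor for Csf1 and Il34, had 4330, 4674 and 4990 CPM in microglia and was 139-fold above endothelial cells. The groups of libraries did not touch for either gene, and the spread among microglia libraries was a small part of the mean (4692 CPM ± 192 for Csf1r, SD, n = 13).

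Among enriched genes with at least 50 CPM, the complement genes C1qa and C1qb had the next largest folds. C1qa, C1qb and C1qc encode the chains of C1q, the first component of the classical pathway, and lie side by side on chromosome 4 (C1qb from 136880129, C1qc from 136889804 and C1qa from 136895917 to 136898803, GRCm38). Their levels were 5153 CPM ± 336, 7545 CPM ± 490 and 6001 CPM ± 375 (SD, n = 13), or 135, 128 and 118 times the highest other class. In all, 8 of 15 counted complement genes were enriched, among them the receptor genes C3ar1, C5ar1 and C5ar2 and the receptor chains Itgam and Itgb2. C3 itself was near the limit of counting in microglia, with 1.21 CPM and no library above 7.75 CPM.

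The homeostatic list gave 17 enriched genes of 20. P2ry12, the purine receptor that steers processes toward injury, had 3987 CPM ± 224. Cx3cr1 had 5655 CPM ± 477, Siglech 3399 CPM ± 262, Gpr34 1502 CPM ± 101 and Tmem119 1566 CPM ± 82.7 (SD, n = 13 for each). Sparc was counted at 5960 CPM in microglia but reached 3221 CPM in an endothelial library, so it was not called, nor were Sall3 and Rhob. Several of these genes overlap others in the annotation (P2ry12 and P2ry13 with Med12l, Gpr34 with Cask, Cx3cr1 with Wdr48), and the labels do not say whether counting used strand.

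Among receptors, 18 of 20 genes of the Tyrobp list were enriched and all 20 were highest in microglia, against 2.77% and 14.5% of all counted genes. Trem2, a lipid-binding receptor, had 2193 CPM ± 180, and its adaptor Tyrobp had 2176 CPM ± 152, at 107 and 111 times the highest other class. Of 16 purine and chemotactic receptors, 10 were enriched, among them P2ry6, Adora3 and Ptafr. The ATP-gated channels P2rx4 and P2rx7 were not, since oligodendrocyte lineage cells held similar levels. P2rx7 had 98.7 CPM in microglia, while a library of precursors reached 98.0 CPM. Of 17 Fc and phagocytic receptors, 7 were enriched, including the Fc receptors Fcgr1, Fcgr2b, Fcgr3 and Fcgr4. Mertk, the receptor for apoptotic cells, was shared with astrocytes, where libraries reached 732 CPM against a microglia mean of 987 CPM. Of 19 genes of the Toll-like receptor pathway, 9 were enriched, with the nucleic acid sensors Tlr7 (178 CPM) and Tlr13 (154 CPM) among them.

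Transcription factors were lower in level and, as a list, less separate. Their median fold over the highest other class was 2.28, against 60.6 for the homeostatic list. Spi1 had 354, 406 and 469 CPM in its lowest, median and highest microglia library and at most 14.3 CPM in a library of any other class. Irf8 had 548 CPM ± 56.8. Sall1, a factor that defines microglia among macrophages, had 389 CPM ± 28.6 and was 10.4-fold above astrocytes. In all, 9 of 21 factors were enriched. Mef2c was not, with 1008 CPM in microglia and up to 813 CPM in a mural library.

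Of 26 lysosomal genes, 10 were enriched, including Ctsd, Lgmn, Laptm5 and Lyz2. Cst3, encoding an inhibitor of cysteine proteases, had 65478 CPM ± 4185 and was 3.62-fold above astrocytes, just under the fold required. Drop-seq counts 1 tag per molecule, so these levels were not divided by length, and levels of different genes are given without ranking them.

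Receptor and ligand genes fell in different classes for several known pairs. Cx3cr1 had 5655 CPM in microglia while its ligand gene Cx3cl1 had 549 CPM in neurons and 4.78 CPM in microglia. The Csf1r ligand Il34 had 248 CPM in mural cells and 69.1 CPM in neurons, and Csf1 had 113 CPM in oligodendrocytes, against 1.44 and 16.1 CPM in microglia. Cd200 had 920 CPM in neurons, and its inhibitory receptor gene Cd200r1 was enriched in microglia at only 19.6 CPM ± 3.86. Apoe, a lipid carrier that Trem2 binds, had 25065 CPM in astrocytes and 961 CPM ± 248 in microglia. The TGF-beta receptor gene Tgfbr1 was enriched at 1611 CPM ± 110 and so was Nrros, which tethers latent TGF-beta, at 125 CPM ± 19.4, while Itgb8, part of the integrin that releases it, had 479 CPM in oligodendrocyte precursors, 381 CPM in astrocytes and 6.17 CPM in microglia. Of 30 counted genes in this list, 10 were enriched.

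**Figure D1:**
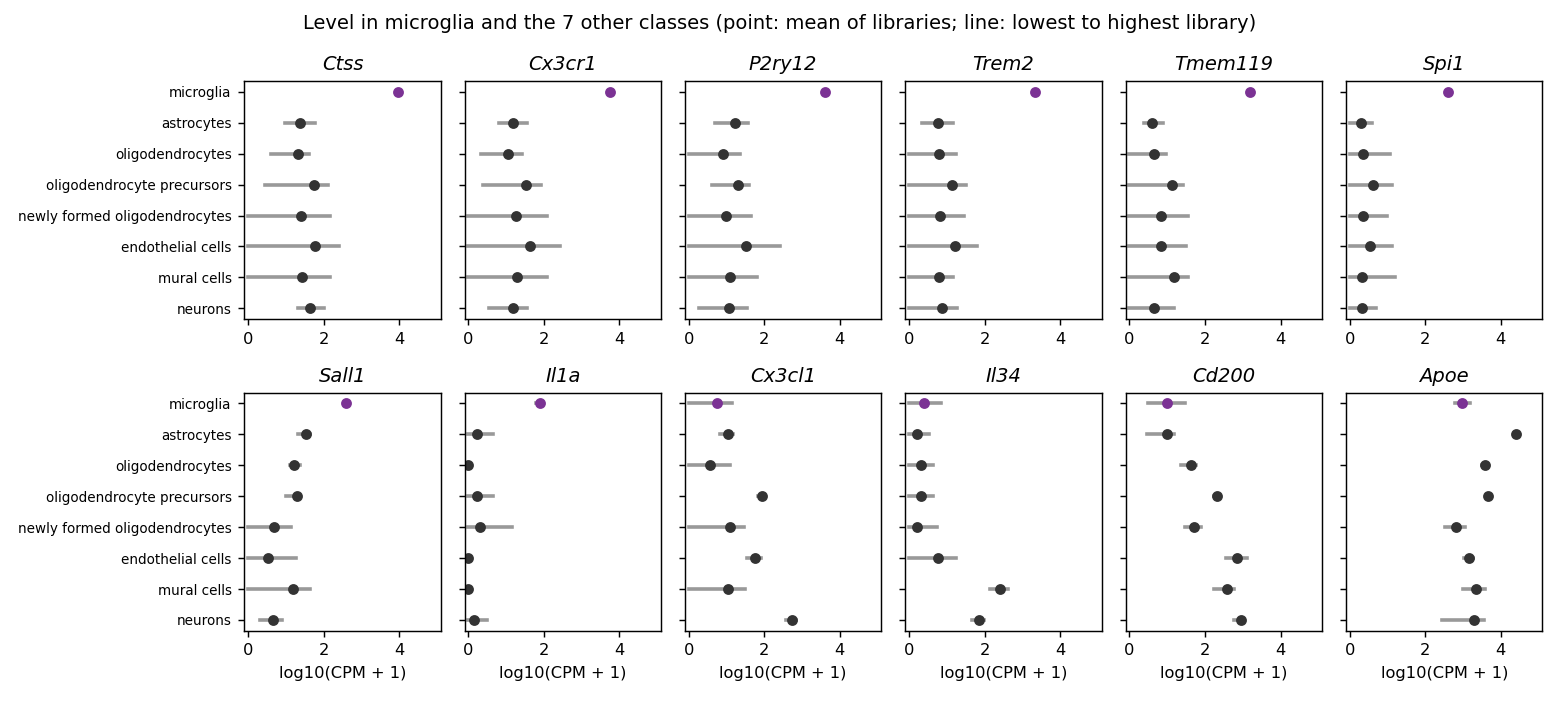
Levels of 12 genes in microglia and the authors' other classes, in CPM of UMIs summed per library on a log10(CPM + 1) axis. Points are means over 13 libraries and lines run from the lowest to the highest library; the microglia lines of Ctss, Trem2 and Spi1 lie above all others, whereas Cx3cl1 and Cd200 are highest in neurons and Apoe in astrocytes.

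Counts for lists tied to responses are set against the 2.77% of all counted genes that were enriched. Of 13 counted cytokine genes, 4 were enriched, above that share: Il1a (76.6 CPM ± 9.67), Ccl6 (262 CPM ± 33.2), Ccl9 (220 CPM ± 17.5) and Ccl12 (84.3 CPM ± 22.5). Tnf and Il1b had 6.56 and 3.39 CPM. Of 16 damage-associated genes, 3 were enriched, namely Trem2, Ctsz and Ccl6, and of 14 antigen presentation genes 2 were, H2-DMa and H2-DMb1. No gene of the interferon-induced (17 counted), immediate early (21), cell cycle (21) or clock (18) lists was enriched. The steroid and hormone receptors had none of 14 either, and Thra, a thyroid hormone receptor gene, was depleted at 36.5 CPM. In lists of this size, having no enriched gene is near the share of 2.77%. The absence is therefore not read as a result about these lists. Nr3c1, which encodes the glucocorticoid receptor, had 285 CPM ± 30.7 in microglia, while Esr1 (estrogen receptor alpha) had 6.96 CPM. The depleted genes with at least 200 CPM in every other class were Nedd4, a ubiquitin ligase gene (26.1 CPM against 307 to 814 CPM), and Aplp2, an amyloid precursor-like gene (135 CPM against 632 to 1512 CPM).

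Ighm and Cd79b, usually read as B lymphocyte genes, were also counted in microglia. Among the 3620 members with 3 or more of the 5 markers, 34.0% had a UMI of Ighm (242 CPM) and 5.97% one of Cd79b. In no other class did the shares pass 0.530% for Ighm and 0.0952% for Cd79b, in cells with medians of 1564 to 4076 UMIs against 1781. The 13 microglia libraries lay between 206 and 293 CPM for Ighm.

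Microglia were next compared with the 109 macrophage-like cells of the same author class, from which they were divided by the 7 rule genes. Those genes were left out, and edgeR was run with each library as a block on the 11 libraries that had at least 5 macrophage-like cells (103 cells, 5 to 17 and 6897 to 48922 UMIs per library). Of 3587 genes tested, 763 (21.3%) were higher in microglia and 430 (12%) in macrophage-like cells at an adjusted p of 0.05. The split depended on scaling, since DESeq2 size factors in the same fit gave 966 and 335 genes, moved the median log2 difference of all genes from 0.18 to 0.32, and raised the share higher in microglia from 64.0% to 74.3%. Without the 59 members with few markers the counts were 760 and 423. Single differences below are best read against those medians. Both kinds of cell differ in number and in the libraries' depth for them, whose part in the result was not tested.

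Of the 20 homeostatic genes 19 had enough counts. All 19 were higher in microglia, also with DESeq2 size factors, with DESeq2 and with limma voom. Their median log2 difference was 4.27. Over all genes tested, 21.3% were higher in microglia. A gene nearly absent from macrophage-like cells can pass the count filter through microglia. The count of tested genes that passed therefore supports no direction for this list, and the counts for the lists below carry the same limit. Cx3cr1 had 4841, 5662 and 6077 CPM in the lowest, median and highest microglia library and 0, 123 and 529 CPM in macrophage-like cells, a log2 difference of 4.77 ± 0.16 (SE). For P2ry12 the macrophage-like libraries ran from 81.8 to 368 CPM and the microglia libraries from 3694 to 4533 CPM (log2 4.31 ± 0.16). Summed over the 11 libraries, Tmem119 had 3 UMIs in macrophage-like cells against 10290 in microglia, and Olfml3 had 4 against 9909. The kinds of cell did not overlap for these 4 genes.

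The factors divided in the same way for 9 of 15 tested genes. Sall1 had 382 CPM in microglia and 1 UMI in the macrophage-like cells of these libraries, and Irf8 had 549 against 222 CPM (log2 1.33 ± 0.20). Maf ran the other way, at 1188 against 3628 CPM (log2 -1.50 ± 0.11). For Spi1 the log2 difference was 0.44 ± 0.20, with an adjusted p of 0.0764 by edgeR, and 0.57 with DESeq2 size factors, where it passed (0.0110).

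Macrophage-like cells had higher Apoe, with 52760, 56712 and 83080 CPM in the lowest, median and highest library against 610, 1008 and 1144 CPM in microglia (log2 -5.93 ± 0.11). Lyz2, encoding lysozyme, had 7719 to 16674 CPM against 290 to 533 CPM (log2 -4.85 ± 0.11). Wfdc17, Dab2, Cybb, Cd36, Lgals1 and the lectin genes Clec10a and Mgl2 were also higher there in 11 of 11 libraries. Clec10a and Mgl2 had 2 and 3 UMIs over the microglia of these 11 libraries. Of 20 interferon-induced genes only 5 had enough counts to be tested. Among these, Ifitm3 had 1124 CPM in macrophage-like cells and 19.3 CPM in microglia, and Bst2 had 750 against 112 CPM. A gene as low in microglia as Ifitm3 passes the count filter through the cells where it is high, so the count of tested genes that passed supports no direction for the list. Igf1, a growth factor gene on the damage-associated list, had 676 CPM in macrophage-like cells and 2.67 CPM in microglia. Cd9 on the same list ran the other way, with 939 CPM in microglia and 10.6 CPM in macrophage-like cells.

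The receptor, complement and lysosomal lists were split between the kinds of cell. C1qa and C1qc did not pass (log2 0.12 ± 0.10 for each, adjusted p of 0.350 and 0.370 by edgeR), and C1qb did (log2 0.32 ± 0.09). With DESeq2 size factors C1qa and C1qc passed too (log2 0.24 for each, adjusted p of 0.0178 and 0.0185 by edgeR), and 5 complement genes of 9 were then higher in microglia and 3 in macrophage-like cells, against 3 and 4. Itgam was higher in microglia (log2 3.29 ± 0.19) and properdin, Cfp, in macrophage-like cells (763 against 5.59 CPM). Trem2 was 2.09 ± 0.14 higher on the log2 scale in microglia, while its adaptor Tyrobp differed by -0.19 ± 0.11 and did not pass (adjusted p of 0.158 by edgeR). Of 25 lysosomal genes, 11 were higher in microglia, including Ctss, Cst3 and Ctsd, and 10 in macrophage-like cells, including Lyz2, Ctsb and Cd63. Cd74, the invariant chain of MHC class II, had 891 CPM in macrophage-like cells and 117 CPM in microglia (log2 -2.71 ± 0.62), in the same direction in 8 of 11 libraries.

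**Figure D2:**
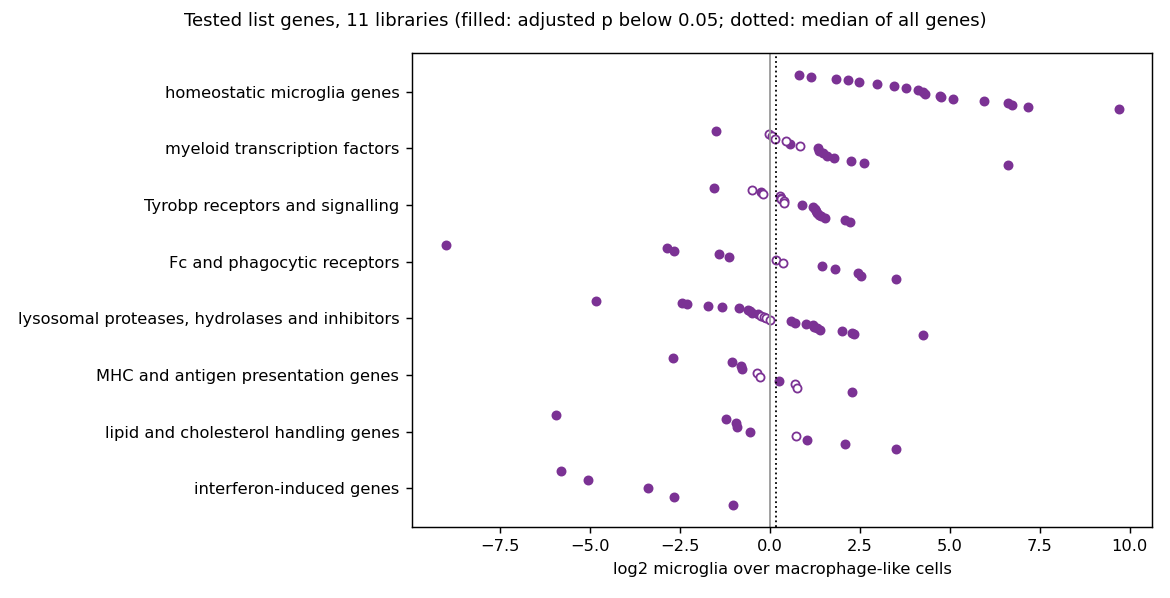
Log2 difference between microglia and macrophage-like cells for the tested genes of 8 lists, positive where microglia are higher. Each point is a gene, filled where it passed at an adjusted p of 0.05 (edgeR with a library block, 11 libraries), and the dotted line is the median of all 3587 genes at 0.18; the homeostatic genes lie to the positive side, and only genes that passed the count filter are drawn, which for the interferon-induced list are 5 of 20.

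Variation among members was measured as the variance over the mean of UMIs per cell after each cell was thinned at random to 800 UMIs, within each library, a ratio that would be near 1 if cells differed only by counting. Over 3232 genes with at least 0.05 thinned UMIs per cell the 95th percentile of the ratio was 1.26, and 26 genes (0.804%) reached 1.5. Cst3 had a ratio of 8.17, Apoe 5.39 and Malat1 4.17. Apoe was counted in 30.5% of thinned cells with up to 44 UMIs in a cell, and the mean in astrocytes was far higher, as given above. Cd74 followed, with a ratio that ran from 0.949 to 15.3 over libraries, and was counted in 3.23% of cells. Of its 836 UMIs in microglia, 306 came from 15 of the 59 cells with few microglia markers. H2-K1 (1.89) and H2-D1 (1.77), which encode MHC class I chains, were also among the 15 highest. So were Sparcl1, Slc1a2, Aldoc, Ppap2b and Ttyh1, known from astrocytes, and Meg3, known from neurons. The summed level of 12 astrocyte markers in microglia was 777 CPM on average, against 40763 CPM in astrocytes, and that of 12 neuronal markers 453 CPM against 32252 CPM in neurons. Scrublet called 58 members (1.58%) doublets, which were kept, and the part of mixed droplets in these ratios was not tested.

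Response states were counted after the same thinning, which left 3526 members and set aside 63 male and 90 female cells below 800 UMIs. A cell was in a state with UMIs of at least 2 genes of a list, and oligodendrocytes gave the background. Cytokines and chemokines put 14.2% of microglia in their state (exact 95% interval 13.1 to 15.4%) and 0.0255% of oligodendrocytes. Its leading genes were Ccl6 in 16.7% of cells, Ccl9 in 13.9%, Tgfb1 in 11.2%, Il18 in 7.01% and Il1a in 6.07%. Il18 was also in 7.08% of oligodendrocytes. The chemokines Ccl3 and Ccl4 were rare, with UMIs of Ccl3 alone in 29 cells, of Ccl4 alone in 33, of both in 4 and of neither in 3460. MHC class II genes put 3.18% of microglia in a state (2.62 to 3.81%) and 0 of 3927 oligodendrocytes, which allows a share of up to 0.0764%. Its leading genes were the peptide loaders H2-DMa (19.9% of cells) and H2-DMb1 (8.45%), whereas H2-Aa, a class II chain, was in 0.454%.

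The interferon state held 2.38% of microglia and 0.458% of oligodendrocytes, led by Bst2 in 8.14%, while Isg15 and Ifit3 were each in under 0.5%, at 0.397% and 0.425%. Without thinning the share was 8.59%. The cell cycle state held 1.30% (oligodendrocytes 0.331%), but its members were mostly replication genes, with Pcna in 8.08% of microglia and 12.8% of oligodendrocytes, and the mitotic genes Mki67 and Top2a in 0.142% and 0.0567%. The damage-associated list put 85.8% of microglia in its state, against 77.4% of oligodendrocytes. Trem2 (79.3% of microglia), Ctsz (50.5%), Cd9 (48.0%) and Apoe (30.5%) carried it, and Spp1, Cst7, Itgax and Gpnmb were in 0.0567%, 0.851%, 0.851% and 0.0284% of cells. Immediate early genes put 11.3% of microglia in a state (oligodendrocytes 6.67%), led by Klf6 (10.5%), Junb (8.03%), Jun (7.54%) and Btg2 (7.20%), with Fos in 0.340%. All intervals and limits here cover counting error alone.

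In 1 random thinning the sex difference did not pass in 5 of the 6 states, each with an adjusted p of 0.942 in an exact two-sided permutation test over libraries. For immediate early genes, male libraries had a mean of 9.54% ± 1.21 (SD, n = 6), the lowest at 7.66%, and female libraries 12.6% ± 1.67 (n = 7), from 10.5 to 14.8%, a difference of -3.01 percentage points with an exact permutation p of 0.00583 (0.0350 after Benjamini-Hochberg adjustment over 6 states). That call rested on 1 random thinning. Over the mean of 20 thinnings, a repeat chosen after the data were seen, the difference was -1.17 points (exact permutation p of 0.211, adjusted 0.633), 1 of 20 draws had a p below 0.05, and the draws ran from -2.82 to -0.138. The interferon state depended on the draw as well. Over the mean of 20 thinnings its difference was -0.70 points (exact permutation p of 0.0653, adjusted 0.392). Of its 20 draws 4 had a p below 0.05, and they ran from -1.45 to -0.0254 points. No sex difference in these shares is therefore reported as past the test.

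**Figure D3:**
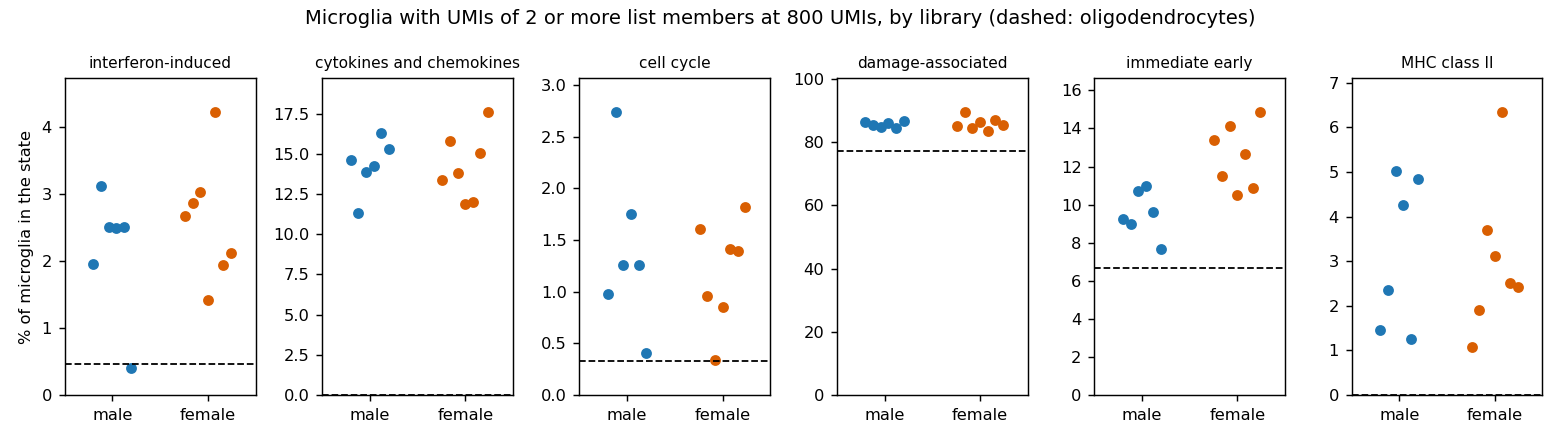
Percent of microglia in each of 6 states per library after thinning to 800 UMIs per cell, in 1 draw, for 6 male and 7 female libraries. Dashed lines give the share of oligodendrocytes meeting the same rule, which is 77.4% for damage-associated genes and 0.0255% for cytokines; the male and female ranges overlap for every state.

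Microglia made up a smaller share of kept cells in males, 13.4% ± 1.17 (SD, n = 6), than in females, 16.0% ± 2.08 (n = 7), with an exact two-sided permutation p of 0.0210. Male libraries ran from 11.6 to 14.4% and female libraries from 12.3 to 18.7%, so the groups overlapped through female replicate 2 at 12.3%. Without the 59 members with few markers the difference was -2.56 points (exact permutation p of 0.0233). Within the 9-week libraries alone the difference was -2.30 points (exact permutation p of 0.105, n = 4 and 6), and the 8-week libraries, 2 male and 1 female, allow no test. A share moves with how well the other classes were recovered, and fewer microglia cannot be told apart from more of other cells.

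The sexes were then compared within microglia, with UMIs summed per library, by edgeR's quasi-likelihood test over 7351 genes and all 13 libraries. The values given per library are CPM scaled by TMM (trimmed mean of M-values). The sex-linked genes matched the labels: Xist, the RNA that silences an X chromosome, had 1225 to 1632 CPM in female libraries and at most 2.01 CPM in male ones. Ddx3y (141 to 189 CPM), Eif2s3y (124 to 154 CPM) and Kdm5d (22.1 to 38.0 CPM), on the Y chromosome, were in male libraries, with at most 1.32 CPM of any of them in a female one. Tsix, the antisense partner of Xist, was also higher in females, but reads of the pair cannot be told apart without strand. Uty was below the count filter. In all, 23 genes (0.313%) passed, 18 (0.245%) higher in males and 5 (0.068%) higher in females, and 18 lay outside these 5 sex-linked genes. Of all genes tested, 550 had an unadjusted p below 0.05, and 22 (0.299%) had male and female libraries that did not overlap, among them 8 of the 18. Without the 59 members with few markers 21 genes were higher in males and 8 in females, and all 23 were among them.

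Among the called genes outside the sex-linked ones, the largest log2 differences were those of Dbp and Per3, genes of the circadian clock. Dbp, Tef and Hlf encode related D-box factors, Per3 a member of the period family, and Nr1d2 a repressor of the clock loop. Dbp had 23.2, 81.8 and 124 CPM in the lowest, median and highest male library and 7.77, 15.8 and 31.2 CPM in females, a log2 difference of 2.23 ± 0.32 (SE, adjusted p of 0.00159 by edgeR). Only male replicate 5, at 23.2 CPM, fell into the female range. Per3 had 21.1, 75.0 and 91.5 CPM in males and 10.5, 20.9 and 42.7 CPM in females (log2 1.61 ± 0.28, adjusted p of 0.00400 by edgeR), and male replicate 5 was again the lowest male. Nr1d2 had 48.6, 120 and 132 CPM in males and 38.2, 56.8 and 72.3 CPM in females (log2 0.93 ± 0.16, adjusted p of 2.4e-04 by edgeR). For Tef the groups did not overlap, with 65.5, 135 and 163 CPM in males and 33.6, 54.2 and 63.9 CPM in females (log2 1.27 ± 0.15, adjusted p of 9.6e-09 by edgeR), although the lowest male, again replicate 5, lay next to the highest female. Reads of Dbp and of Sphk2 on the opposite strand, and of Tef and Gm17597, overlap in the annotation.

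Of 18 clock genes, 7 passed the count filter and these 4 rose in males, with a median log2 difference of 0.93 over the 7 against 0.00 over all genes. Over all genes tested, 0.245% were higher in males. Hlf had a log2 difference of 0.75 ± 0.30 (adjusted p of 0.509), Clock 0.32 ± 0.20 (0.786) and Bhlhe41 -0.06 ± 0.11 (0.964), none past the edgeR test. Per1 and Nr1d1 were below the filter. Nr1d1 had 4.02, 24.0 and 27.5 CPM unscaled in males and 0, 5.93 and 10.7 in females, and male replicate 5 was its lowest male too. Per2, with 33 UMIs over all male and 9 over all female microglia, had 12.1 CPM in male replicate 5 against a male median of 9.47 CPM, so this library was not low for every clock gene. It was the lowest male library for Hlf (12.1 CPM), Cry1 (2.01 CPM) and Cry2 (4.02 CPM). Arntl, which peaks in antiphase to Dbp, had a male median of 4.95 CPM and a female median of 6.47 CPM with overlapping ranges, and male replicate 5 was the highest of all 13 libraries at 16.1 CPM. These low genes rest on few UMIs, 53 in all 13 libraries for Arntl and 42 for Per2.

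Without male replicate 5, a library labelled 8 weeks old like male replicate 3, edgeR called 28 genes higher in males and 11 higher in females. Dbp then stood at a log2 difference of 2.42, Per3 at 1.79, Nr1d2 at 1.07 and Tef at 1.40. Nr1d1 (2.14 ± 0.37) and Per1 (1.25 ± 0.30) passed as well, so that 6 of 9 tested clock genes were called. Nr1d1, low in females, can pass the count filter through male libraries, so the count among tested genes depends on that filter. Without the filter and with all 13 libraries, 6 of 18 clock genes were called higher in males, against 32 of all 16029 genes. Within the 9-week libraries alone 5 of 9 were. With limma voom 2 of 7 were called, and Dbp and Per3 then had adjusted p-values of 0.140 and 0.159. The hour of dissociation is not given in the labels, so sex and time of day cannot be told apart for these genes.

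**Figure D4:**
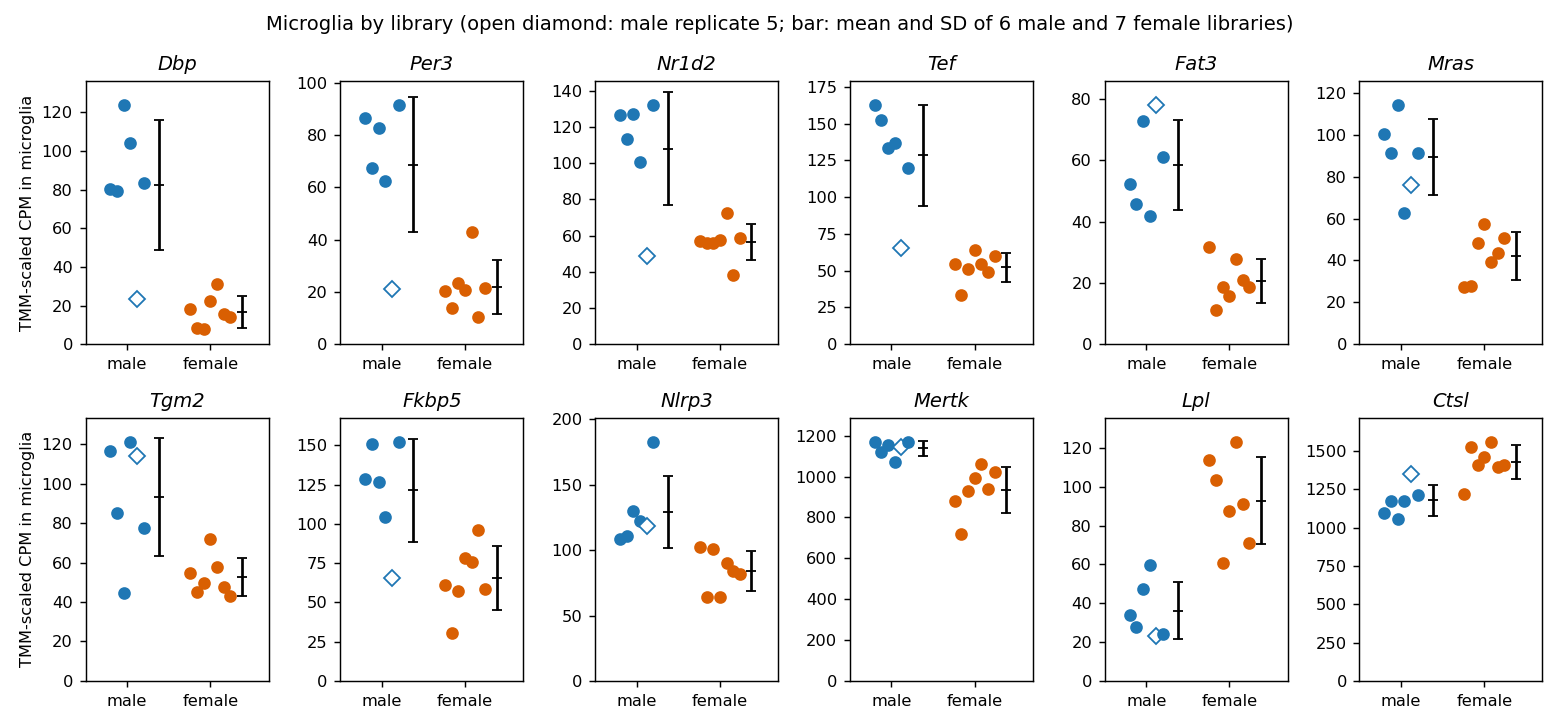
TMM-scaled CPM of 12 genes in microglia, 1 point per library, for 6 male and 7 female libraries with mean and SD; the open diamond is male replicate 5. It lies among or next to the female points for Dbp, Per3, Nr1d2, Tef and Fkbp5, but among the male points for Fat3, Mras, Mertk and Lpl.

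Other classes of the same libraries were examined for these genes, an addition made after the data were seen. The classes share libraries, so their values are not independent. Oligodendrocytes had higher Dbp (log2 1.52 ± 0.22, adjusted p of 1.7e-04), Per3 (2.05 ± 0.27, 7.9e-06), Nr1d2 (0.84 ± 0.13, 1.8e-04) and Tef (0.96 ± 0.17, 0.0152) in males, each by edgeR. Astrocytes passed for Tef alone of the 4 (0.38 ± 0.09, adjusted p of 0.0167 by edgeR). In neurons the log2 differences were 0.12 ± 0.18 for Dbp, -0.14 ± 0.16 for Per3, 0.12 ± 0.15 for Nr1d2 and -0.02 ± 0.13 for Tef, none of which passed. In endothelial cells they were 0.91 ± 0.26 for Per3 (adjusted p of 0.0695) and 0.94 ± 0.28 for Tef (0.130), and in mural cells 1.07 ± 0.46 for Per3 (0.70) and 0.97 ± 0.30 for Tef (0.414), which were of the size seen in oligodendrocytes for Tef but had larger errors and did not pass by edgeR. None of the 4 passed in the remaining classes, and newly formed oligodendrocytes had enough counts for Tef alone. A term for the difference between microglia and all other cells summed, again fitted by edgeR with a library block over 13322 genes, passed for 19 genes (0.143%), with 947 at an unadjusted p below 0.05. It passed for Dbp (log2 1.90 ± 0.23, adjusted p of 2.2e-07), Per3 (1.11 ± 0.22, 0.00602) and Tef (0.82 ± 0.15, 0.00342), and missed for Nr1d2 (0.70 ± 0.17, 0.0551).

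**Figure D5:**
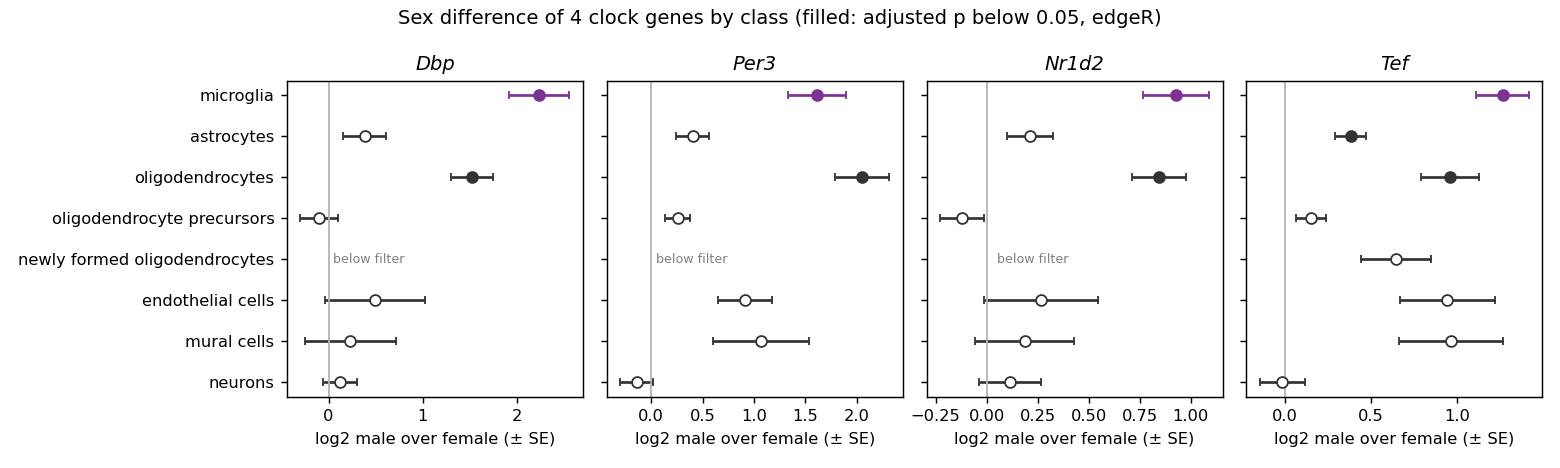
Log2 difference between males and females (positive where males are higher) with SE for clock genes in each author class, from edgeR on UMIs summed per library; filled points passed at an adjusted p of 0.05. Dbp, Per3, Nr1d2 and Tef passed in microglia and oligodendrocytes, and neurons lie near 0.

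Outside the clock list, Fat3, an atypical cadherin gene, had 41.7, 56.6 and 78.1 CPM in males and 11.2, 18.6 and 31.8 CPM in females (log2 1.46 ± 0.21, adjusted p of 2.6e-06 by edgeR), with no overlap. Mras, a Ras-related GTPase gene, had 62.6, 91.3 and 114 CPM in males and 27.3, 43.5 and 57.4 CPM in females, also without overlap (log2 0.99 ± 0.17, adjusted p of 7.3e-05 by edgeR). Tgm2, encoding a transglutaminase, had 44.4, 99.7 and 121 CPM in males and 43.2, 49.7 and 71.7 CPM in females (log2 0.85 ± 0.16, adjusted p of 9.8e-04 by edgeR), and male replicate 3 alone among males fell in the female range. The term against all other cells passed for Fat3 (1.07 ± 0.23) and Tgm2 (1.21 ± 0.22) but not for Mras (0.85 ± 0.23, adjusted p of 0.205 by edgeR). Fat3 and Mras are also expressed by astrocytes, Fat3 at 70.0 CPM there, and the summed astrocyte markers ran from 585 to 1752 CPM in male microglia and from 364 to 883 CPM in female microglia. Within astrocytes, Fat3 had a mean of 81.2 CPM (male) and 60.4 CPM (female), a log2 difference of 0.42 ± 0.13 that did not pass (adjusted p of 0.0912 by edgeR), and Mras a mean of 319 CPM (male) and 333 CPM (female). The part of astrocyte RNA in these differences was not tested.

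Lpl, the lipoprotein lipase gene, was the clearest of the genes higher in females. It had 23.2, 31.0 and 60.0 CPM in males and 60.6, 91.0 and 123 CPM in females (log2 -1.29 ± 0.19, adjusted p of 2.1e-05 by edgeR), and the groups came within 1 CPM without overlapping. The term against all other cells passed for it (-1.14 ± 0.27, adjusted p of 0.0459 by edgeR). Lpl was the sole member of the lipid list (10 tested) and of the damage-associated list (9 tested) to pass. Crlf2, a cytokine receptor subunit gene (log2 -0.79 ± 0.18), and Ctsl, encoding cathepsin L (1054 to 1353 CPM in males and 1220 to 1562 CPM in females, log2 -0.27 ± 0.06), were the other 2 higher in females. Ctsl was the sole one of 25 lysosomal genes to pass. Since 0.313% of all genes tested passed, a single call in a short list, here and below, is not read as a result about the list.

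Mertk was the sole one of 13 Fc and phagocytic receptors, with 1069, 1149 and 1171 CPM in males and 720, 941 and 1060 CPM in females (log2 0.28 ± 0.07, adjusted p of 0.0287 by edgeR). In astrocytes, where Mertk is also expressed, it was higher in males too (log2 0.50 ± 0.11, adjusted p of 0.0325 by edgeR), and the part of the astrocyte marker levels above in the microglia value was not tested. Nlrp3, the inflammasome sensor, had 108, 120 and 183 CPM in males and 63.9, 84.4 and 102 CPM in females (log2 0.61 ± 0.14, adjusted p of 0.0106 by edgeR), and its highest male was replicate 6, without which the adjusted p was 0.151. Without female replicate 4 it was 0.0616.

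Fkbp5, a chaperone gene induced by glucocorticoids, was the sole one of 9 tested steroid and hormone receptor genes to pass. It had 65.5, 128 and 152 CPM in males and 30.8, 61.3 and 96.2 CPM in females (log2 0.82 ± 0.18, adjusted p of 0.0299 by edgeR), with male replicate 5 lowest among males. Fkbp5 also had positive log2 differences in the other classes with enough counts, none past the edgeR test. They were 1.01 ± 0.30 in oligodendrocytes, 0.54 ± 0.18 in oligodendrocyte precursors and 0.50 ± 0.30 in neurons. Its term against all other cells was 0.15 ± 0.20 and did not pass. Tsc22d3, another glucocorticoid target, had a log2 difference of 0.55 ± 0.20 and Nr3c1 one of 0.22 ± 0.08, with adjusted p-values of 0.421 and 0.438 by edgeR. Other genes higher in males were Tspan4, Dst, Peli2 and Ypel5, with log2 differences of 0.58, 0.41, 0.69 and 0.54. For Tspan4, male replicate 5 (101 CPM) lay below every female library, the lowest of which had 104 CPM. Its log2 difference was 0.97 ± 0.34 in mural cells, 0.66 ± 0.25 in endothelial cells, 0.39 ± 0.24 in astrocytes, 0.03 ± 0.19 in oligodendrocyte precursors and -0.19 ± 0.20 in neurons. None of these passed by edgeR. Fkbp5, Ypel5, Peli2 and Mertk lay close to the threshold, and held in 5, 5, 7 and 6 of the 13 fits that each left out 1 library.

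None of the 20 homeostatic genes passed, with log2 differences from -0.29 (Crybb1, adjusted p of 0.111 by edgeR) to 0.19 (Fcrls, 0.162) and a median of 0.03. None of 9 complement, 20 Tyrobp, 12 purine, 15 Toll-like, 13 antigen presentation or 9 cytokine genes passed. A count of 0 in lists of this size is near the 0.313% of all genes tested that passed. Of these lists, limma voom called Fcrls (adjusted p of 0.0347), and edgeR called 1 Toll-like pathway gene without male replicate 5 (Cd14, log2 0.41 ± 0.09, adjusted p of 0.00786), without a filter on low counts (Cd14, 0.0331) and in the 9-week libraries alone. The 5 tested interferon-induced genes had log2 differences from -0.54 to -0.30, none past the test. The 4 tested X-linked genes known to escape inactivation had values from -0.39 to -0.20, with means for Ddx3x of 354 CPM (male) and 419 CPM (female) (adjusted p of 0.273 by edgeR).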

How the data were processed

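UMI counts per gene and cell, with a class for each cell, were used as deposited by the authors, who made them from Drop-seq reads of 13 libraries with STAR 2.5.0a, bcl2fastq 2.17.1.14 and build mm10, per the submitters' processing notes. How UMIs were collapsed is not stated in the labels. The table held 16961 genes, no mitochondrially encoded gene and no cell below 188 genes, and 0 columns went unused. Of its symbols 15925 matched GENCODE M21 once, which gave positions, and promoter letters came from RefSeq on GRCm38.p6.

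Cells with at least 500 genes were kept and their counts summed per library and class (at least 10 cells). Sex was tested with edgeR 4.0.16 in R 4.3.3 (TMM, filterByExpr, robust quasi-likelihood, Benjamini-Hochberg adjusted p below 0.05), and macrophage-like cells with the library as a block. DESeq2 1.42.0 and limma voom 3.58.1 were alternatives. Shares were compared with an exact permutation test over the 1716 assignments of libraries to sexes. Doublets were called with Scrublet in scanpy 1.11.5 and kept. The fits were tested on simulated data.

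The members and lists were chosen with earlier results of these data known. Named genes were, against other classes, the 30 enriched with the largest folds and at least 50 CPM and the 10 most depleted with at least 200 CPM elsewhere. Between sexes they were 5 sex-linked genes and up to 15 per direction with the smallest adjusted p and at least 20 CPM, and against macrophage-like cells up to 10 per direction with at least 50 CPM. To these came the 15 most variable genes, any list member against other classes and list members past the threshold elsewhere. List members given as not past a test, Tsix, Ighm, Cd79b and the genes of members with few markers were named after their values were seen. The repeats with at least 3 of 5 markers and with 20 thinnings, the sex fits in other classes and the class-by-sex term were added after seeing the data. Some genes are not reported here.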

Additional observations from a re-analysis of the deposited data

Results flagged for a closer look

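In groups of 4 to 10 libraries, a library was singled out where its gap to the nearest other was large for the group's range (Dixon's criterion at 95%). Of 50 groups examined, 2 had one, and chance alone gives about 1 in 20. Per3 in female replicate 5 stood at 42.7 TMM-scaled CPM, while the other female libraries ran from 10.5 to 23.3 CPM. Nlrp3 in male replicate 6 stood at 183 CPM, while the other male libraries ran from 108 to 130 CPM.

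The sex difference in microglia differed from that in all other cells of the same libraries, by edgeR's test of the class-by-sex term, for 6 of the called genes. On the log2 scale the term was 1.90 for Dbp, 1.11 for Per3, 0.82 for Tef, 1.21 for Tgm2, 1.07 for Fat3 and -1.14 for Lpl. The term sets microglia against the sum of the other classes and not against each. Oligodendrocytes also passed for Dbp, Per3 and Tef, with log2 differences of 1.52, 2.05 and 0.96. In neurons the differences were 0.12, -0.14 and -0.02. Astrocytes passed for Tef alone of these genes, and the remaining classes for none. The other cells were summed over classes whose proportions differ between libraries, and the part of those proportions in the term was not tested.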

How the results depend on the processing

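Tef, Fat3, Lpl, Mras, Nr1d2, Tgm2, Tspan4 and Dst kept their direction and call in all 26 alternatives, and no named gene reversed. Against 18 genes higher in males and 5 higher in females, edgeR without a filter on low counts gave 32 and 15, and without one on detected genes 32 and 8. With at least 800 genes or with 3 or more of 5 markers, 8 were higher in females. Leaving out 1 library gave 14 to 28 and 4 to 11, the highest of both without male replicate 5, and 8 higher in females without female replicate 7. Ctsl lost its call without female replicate 4 or 5 or male replicate 1 or 3, and Crlf2 without male replicate 5 or 6 (adjusted p of 0.0521 and 0.0834) and in the 9-week libraries alone (0.131).

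Same-numbered male and female libraries did not deviate together over all genes (correlations from -0.034 to 0.043). Such correlations cannot show whether these libraries were handled together, and the main fit assumed no pairing. With the replicate numbers as a block 16 and 11 genes passed, 17 of them among the 23, and the adjusted p by edgeR was 0.189 for Dbp and 0.398 for Per3.

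Without a filter on low counts 2507 genes were higher in microglia than in macrophage-like cells, against 763. Enriched genes numbered 229 at a fold of at least 8, and depleted genes 33 at 2, 2 at 8 and 26 with 1 CPM added. The sex difference in the share of microglia was -2.30 points in the 9-week libraries alone. That in immediate early genes (-3.01 points) lost its call at -1.17 over 20 thinnings, -0.43 for at least 3 genes, -3.13 unthinned, -1.80 at 1200 UMIs, -2.72 with at least 800 genes, -2.64 with 3 or more markers, and -3.06 in 9-week libraries. Leaving out 1 library gave -3.36 to -2.63, and the call held in 4 of 13 such fits. The causes were not tested.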
